A study of Rattus norvegicus with 2 samples.

Results

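Satellite glial cells wrap the cell bodies of sympathetic neurons, and a neuron taken out of its ganglion can carry glial RNA with it. The transcripts described here are those of 8 genes known from satellite glia and Schwann cells, Apoe, Fabp7, Sox10, S100b, Gfap, Mbp, Sparc and Erbb3, as they were measured in the sympathetic neuron cluster of dissociated stellate ganglia. They were chosen by gene symbol, with earlier results of these data known. All 8 were found among the 25395 genes listed for the cluster. Stellate ganglia were digested with collagenase and trypsin and sequenced cell by cell with 10x Genomics droplets, in 1 library from normotensive male Wistar rats and 1 library from prehypertensive male SHRs (spontaneously hypertensive rats), all of 5 to 6 weeks of age. Neither strain carried a transgene or received a treatment, the SHR is an inbred strain, and how many animals were pooled for a library is not given in the sources used here.

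Levels are means over the neurons of a library, in counts per 10000 counts of a cell, and the strains were compared by the SHR mean divided by the Wistar mean. The droplet chemistry counts molecules at the 3′ end of transcripts, so levels were not divided by gene length. With 1 library per strain, there is no replicate spread, no standard deviation and no test between the strains. More genes were above 0 in the Wistar neurons, 16000, than in the SHR neurons, 14645. The number of neurons and their depth are unknown, so counting error cannot be stated. Every difference given here is therefore a difference between these 2 libraries.

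Satellite glia and Schwann cells both come from the neural crest. The transcription factor Sox10 and the receptor Erbb3, which receives the neuronal signal neuregulin, mark their lineage and are needed for it. S100b is a calcium-binding protein, Gfap an intermediate filament protein and Fabp7 a fatty acid carrier of glial cells. Apoe carries lipids and is abundant in satellite glia, Mbp is a protein of compact myelin, and Sparc is a secreted protein that binds collagen. Apoe is also made by macrophages and Sparc by fibroblasts and endothelial cells. The Mbp locus also gives Golli transcripts, which are known in neurons and share exons with those of myelin.

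All 19 genes of a list of sympathetic neuron markers were above 0 in both libraries, as were 14256 of all 25395 genes. Th, Dbh and Slc6a2, which are in the list, are among the markers the paper used for these neurons. Their presence therefore does not test the label of the cluster. The 19 markers summed to 269.1 per 10000 in Wistar against 303.1 in SHR. By the average of both libraries, the most abundant of them were Prph, a neuronal intermediate filament gene, at 58.0 per 10000 in Wistar against 67.6 in SHR, and Tubb3, a neuronal tubulin gene, at 44.8 and 58.4. The 5 genes of noradrenaline synthesis, storage and uptake in the list, named after their values were seen, had ratios below 1. In the whole list, 11 genes were lower in SHR and 8 higher. Of all 7621 genes with an average over both libraries of at least 0.1 per 10000, 65.6% were lower. The ratio was 0.993 for Th and 0.960 for Slc6a2, the genes of tyrosine hydroxylase and the noradrenaline transporter. It was 0.679 for Slc18a2, the vesicular monoamine transporter gene, and 0.624 and 0.488 for Dbh and Ddc, which encode enzymes of noradrenaline synthesis. The 8 glial transcripts together reached 9.55 per 10000 in the Wistar neurons but 3.54 in the SHR neurons.

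All 8 glial transcripts had a lower mean in the SHR library than in the Wistar library. Their summed level in SHR was 0.371 times that in Wistar, and the single ratios ran from 0.175 for S100b to 0.604 for Mbp. In 6 of the 8 the SHR mean was at most 0.5 times the Wistar mean, and Fabp7 and Mbp were the exceptions. The members were chosen with earlier results of these data known, so these counts are a description and not a test. Lower means were common in SHR. Of the 7621 genes with an average over both libraries of at least 0.1 per 10000, 65.6% were lower in SHR and 11.3% had an SHR mean of at most 0.5 times the Wistar mean. Over these genes the median ratio was 0.863, and the middle 50% of ratios lay between 0.654 and 1.11. Only 4 of the 8 members, Apoe, Sparc, Mbp and S100b, passed this minimum. Among the 14256 genes above 0 in both libraries, which include all 8 members, 66% were lower in SHR and 21.9% had a ratio of at most 0.5.

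**Figure D1:**
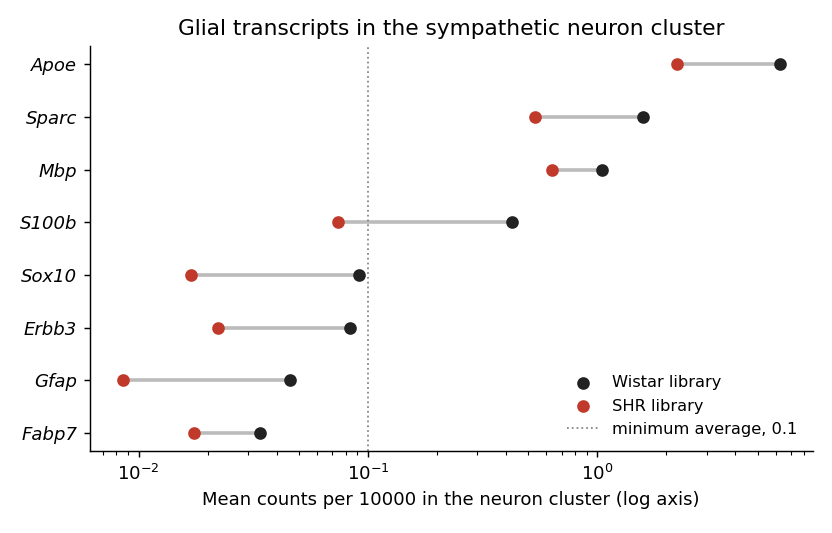
Mean counts per 10000 (log axis) of the 8 glial transcripts in the sympathetic neuron cluster, with 1 point for the Wistar library (black) and 1 for the SHR library (red), joined by a line; the dotted line is at 0.1. Each SHR point lies to the left of its Wistar point, from Apoe at 6.24 and 2.23 to Fabp7 at 0.0337 and 0.0174.

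Among the secreted proteins, Apoe was the most abundant member. The Wistar neurons averaged 6.24 per 10000 of it and the SHR neurons 2.23, a ratio of 0.358. It ranked 170 among all genes in the Wistar neurons and 698 in the SHR neurons. At levels from 1 to 10 per 10000, a range of 1582 genes, 46.5% of the genes were lower in SHR and 3.98% had a ratio of at most 0.5. A ratio as low as that of Apoe was found in 0.759% of them. Sparc lay in the same range, at 1.59 per 10000 in Wistar against 0.537 in SHR. Its ratio of 0.338 was close to that of Apoe, and 0.695% of the genes in the range had a ratio as low. With the Apoe mean of each library set to 100, Sparc stood at 25.4 in the Wistar neurons against 24.0 in the SHR neurons, so the proportion of these 2 transcripts hardly differed.

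Mbp, the myelin gene, had the smallest difference between the libraries. It averaged 1.05 per 10000 in Wistar against 0.632 in SHR, a ratio of 0.604. At levels from 0.1 to 1 per 10000, which hold 5945 genes, 23.2% had a ratio as low as that of Mbp, 71.2% were lower in SHR and 13.4% had a ratio of at most 0.5. With Apoe set to 100, Mbp stood at 16.8 in Wistar but at 28.3 in SHR. Reads at the 3′ end do not tell the myelin and Golli transcripts of this locus apart.

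S100b stood at the other end of the order. It averaged 0.424 per 10000 in Wistar against 0.0744 in SHR, a ratio of 0.175, and 0.421% of the 5945 genes at levels from 0.1 to 1 per 10000 had a ratio as low. With Apoe set to 100, S100b stood at 6.80 in Wistar but at 3.33 in SHR. Relative to Apoe, S100b and Mbp therefore moved in opposite directions between the libraries.

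The remaining 4 members, the lineage genes Sox10 and Erbb3, the filament gene Gfap and the lipid carrier Fabp7, had averages under 0.1 per 10000. Sox10 averaged 0.0914 per 10000 in Wistar against 0.0169 in SHR, a ratio of 0.185. Gfap, at 0.0456 and 0.00852, had almost the same ratio, 0.187. Erbb3 was at 0.0835 in Wistar and 0.0222 in SHR, a ratio of 0.266. Fabp7 was at 0.0337 and 0.0174, a ratio of 0.516. Ratios of genes at this level varied widely. Among the 4011 genes from 0.01 to 0.1 per 10000, 73.7% were lower in SHR, 33.8% had a ratio of at most 0.5, and the middle 50% of ratios spanned 0.403 to 1.03. A ratio as low as that of Sox10, Gfap, Erbb3 and Fabp7 was found in 8.85%, 8.95%, 14% and 35.6% of these genes. The ratios of these 4 genes are thus less unusual for their level than those of Apoe, Sparc and S100b.

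**Figure D2:**
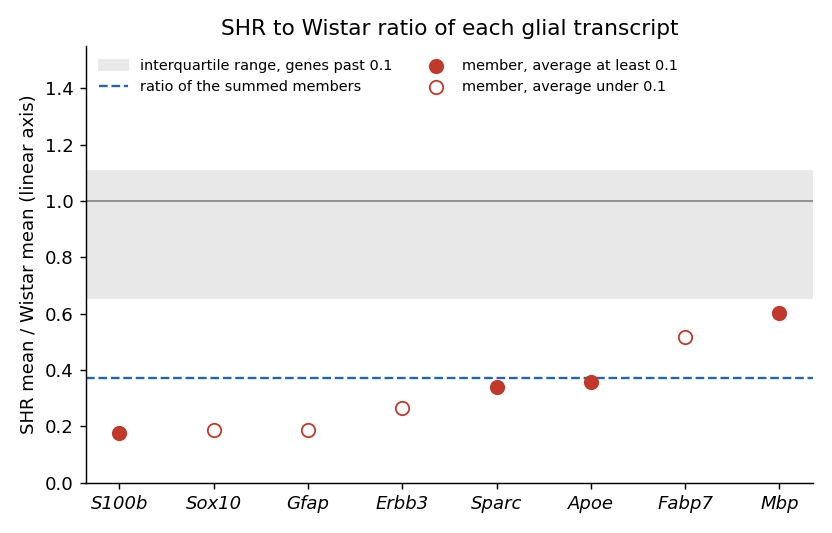
SHR mean divided by Wistar mean (linear axis) for each member, in increasing order, with filled points for members that average at least 0.1 per 10000 and open points for the others. The dashed line is the ratio of the summed members, 0.371, and the grey line is at a ratio of 1. The grey band holds the middle 50% of the 7621 genes past the minimum, 0.654 to 1.11. All members lie below the band, but the open points are not among these genes. At their level, 0.01 to 0.1 per 10000, the middle 50% of ratios spanned 0.403 to 1.03, which includes Fabp7.

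Whether the members share 1 ratio was asked because RNA of a single source could differ in amount between the libraries. It would then lower all its transcripts by the same factor, within counting error. This holds only if the source was alike in both strains, the neurons made none of these transcripts, and nothing else shifted single genes. The source of the members' RNA was not tested. The highest member ratio was 3.44 times the lowest. Among the 4 members past the minimum the same factor of 3.44 separated Mbp from S100b. The order of the ratios held 4 members between 0.175 and 0.266 (S100b, Sox10, Gfap and Erbb3) and 4 between 0.338 and 0.604 (Sparc, Apoe, Fabp7 and Mbp). Had each member followed the ratio of the sum, 0.371, the SHR mean would have been 0.157 for S100b, where 0.0744 was listed, and 0.388 for Mbp, where 0.632 was listed. The listed SHR mean was thus 0.473 times that value for S100b and 1.63 times it for Mbp. It was 0.965 times for Apoe, 0.913 times for Sparc, 0.717 times for Erbb3, 0.503 times for Gfap, 0.50 times for Sox10 and 1.39 times for Fabp7. Since Apoe made up 65.3% of the sum in Wistar and 63.1% in SHR, the ratio of the sum lies near that of Apoe by construction. Without Apoe it was 0.395. Mbp made up 11.0% of the sum in Wistar and 17.8% in SHR, and S100b 4.44% and 2.10%. Whether these departures from 1 ratio are larger than counting error cannot be told without the depth.

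S100b upstream window, chr20:12381082-12381331, minus strand: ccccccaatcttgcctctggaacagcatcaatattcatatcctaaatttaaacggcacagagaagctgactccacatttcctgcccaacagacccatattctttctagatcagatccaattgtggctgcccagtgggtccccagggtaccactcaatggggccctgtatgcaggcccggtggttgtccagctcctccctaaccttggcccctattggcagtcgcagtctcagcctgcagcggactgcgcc
Gfap upstream window, chr10:88361662-88361911, minus strand: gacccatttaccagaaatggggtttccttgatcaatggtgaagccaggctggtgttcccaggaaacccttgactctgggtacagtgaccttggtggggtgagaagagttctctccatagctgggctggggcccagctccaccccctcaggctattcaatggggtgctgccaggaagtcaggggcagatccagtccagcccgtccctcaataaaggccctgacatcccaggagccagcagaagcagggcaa
Fabp7 upstream window, chr20:37669356-37669605, plus strand: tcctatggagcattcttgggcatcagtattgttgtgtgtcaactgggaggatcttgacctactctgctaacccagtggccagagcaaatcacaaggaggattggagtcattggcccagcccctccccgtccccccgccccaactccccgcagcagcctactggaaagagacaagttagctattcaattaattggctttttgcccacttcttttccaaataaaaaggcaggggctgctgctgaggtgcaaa
These windows, of 250 bases up to the annotated start site, are shown for the members S100b and Gfap, with ratios of 0.175 and 0.187, and for Fabp7, with a ratio of 0.516. They are RefSeq sequences of the GRCr8 assembly, which is not the build behind the expression values, and the 3′ reads do not cover them. They were searched on both strands for the core bound by SOX proteins, spelled ACAAAG or ACAATG, and for the TATA box, spelled TATAAA, and matches would stand in capitals. None of the 3 windows holds a match. In all, 6 of the 8 members have windows in the RefSeq table. Of their 9 windows, 1, an Mbp window, holds the SOX core and none holds TATAAA, against 25.3% and 12.9% of all 33469 windows.

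The level of a gene and its length went with the ratio across all genes. From levels of 0.01 to 0.1 per 10000 up to levels of at least 10, the median ratio went from 0.675 to 1.17, as the plot of ratio against level shows. Genes past the minimum were also ranked by their spans in GRCr8 and split into 10 groups of equal size. In group 1, the shortest genes, 27% were lower in SHR and 5.08% had a ratio of at most 0.5, and in group 10, the longest, 85.6% and 22.1%. Apoe is in group 1, Fabp7 falls within group 2, S100b, Sox10 and Gfap within group 3 and Sparc and Erbb3 within group 5. The median ratios of groups 1, 2, 3 and 5 were 1.23, 1.02, 0.942 and 0.861, all above those of these members. Mbp falls within group 9, where the median ratio was 0.729 and 83.8% of genes were lower in SHR.

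**Figure D3:**
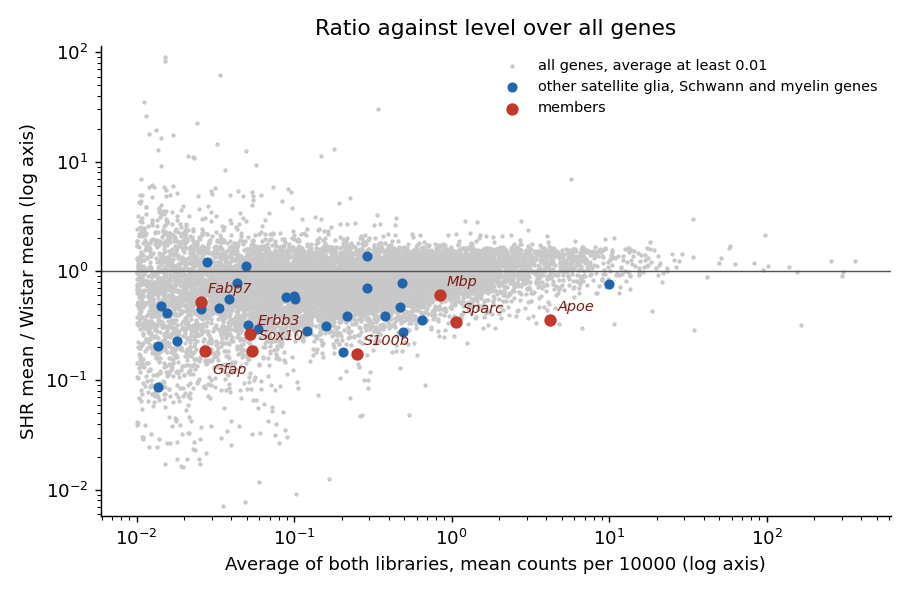
SHR mean divided by Wistar mean (log axis) against the average of both libraries in mean counts per 10000 (log axis), for all genes with an average of at least 0.01 and a mean above 0 in both libraries (grey), the other satellite glia, Schwann cell and myelin genes (blue) and the 8 members (red, named). Apoe, Sparc and S100b lie along the lower edge of the grey cloud, whereas Fabp7 and Mbp lie inside it.

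Other genes known from satellite glia were mostly lower in SHR as well. Of 23 such genes, 22 were listed and 20 were above 0 in both libraries. Of these, 17 were lower in SHR and 3 higher, with a median ratio of 0.466 and a wide range, from 0.166 to 1.37. Lower in SHR were 66% of all 14256 genes above 0 in both libraries, and 73.7% of genes from 0.01 to 0.1 per 10000. The glial potassium channel gene Kcnj10 was at 0.000598 per 10000 for Wistar and at 0 for SHR, and the glial glutamate transporter gene Slc1a3 was at 0 for Wistar and at 0.000605 for SHR, so both were near 0 throughout. Past the minimum were 8 genes of the list, of which 7 were lower in SHR. This stands beside 65.6% of all genes past the minimum, and 71.2% of genes from 0.1 to 1 per 10000, the range of these 8. Cdh19, a cadherin gene of Schwann cell precursors, had a ratio of 0.284 and Lgi4, a secreted factor for Schwann cell maturation, one of 0.314. Scn7a, a sodium channel gene known in glia, had a ratio of 0.359, Sostdc1, a secreted antagonist, one of 0.392, Fxyd1, a sodium pump regulator, one of 0.473 and Matn2, a matrix gene, one of 0.552. Glul, the glutamine synthetase gene, went the other way, from 0.245 per 10000 in Wistar to 0.337 in SHR.

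Schwann cell and myelin genes spread over a wide range of ratios. Of 14 genes, 12 were above 0 in both libraries, and 11 of these were lower in SHR, with a median ratio of 0.354, beside the 66% of all genes above 0 in both libraries and the 73.7% of genes from 0.01 to 0.1 per 10000 that were lower. Cnp, a myelin enzyme gene, Drp2, which encodes a partner of periaxin, and Pmp22 lay nearer to the median of all genes, with ratios of 0.772, 0.700 and 0.760. Pmp22, the peripheral myelin protein gene, averaged 11.3 per 10000 in Wistar against 8.58 in SHR, a level above that of Apoe. Mbp, at 0.604, lay below these 3 genes and above the median of the list. The list as a whole had a ratio of 0.710, and 0.480 without Pmp22. Mag, the myelin-associated glycoprotein gene, was at 0.0128 per 10000 for Wistar and at 0 for SHR, and Ncmap, another Schwann cell gene, was at 0 for both.

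Genes known from glia and also from neurons lay above most of the members. Dbi, an acyl-CoA binding protein gene, had a ratio of 0.777, Gpm6b, a membrane proteolipid gene, one of 0.591, and Vim, the vimentin gene, one of 0.585. Cryab, a small heat shock protein gene, had a ratio of 0.356. Of the 36 genes of these 3 lists with a mean above 0 in both libraries, Scn7a and Cryab had the ratios nearest to that of Apoe, at distances of 0.0043 and 0.009 on the log2 scale, and this likeness rests on 2 libraries.

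Of 10 genes whose products bind or process the members, 9 were listed and 8 were above 0 in both libraries. All 8 were lower in SHR, where 66% of the 14256 genes above 0 in both libraries were lower. Nrg1, the neuronal ligand of Erbb3, averaged 0.479 per 10000 in Wistar against 0.247 in SHR, a ratio of 0.516. The Apoe receptor genes Lrp1 and Lrp8 had ratios of 0.359 and 0.372. Nrg1 and Lrp8 are known in neurons, and their ratios overlapped those of the glial members.

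Summed markers of fibroblasts and immune cells were also lower in the SHR neurons. The counts of lower genes that follow stand beside 66% of all genes above 0 in both libraries, and 73.7% of genes from 0.01 to 0.1 per 10000. Fibroblast markers summed to 2.78 per 10000 in Wistar against 0.665 in SHR, a ratio of 0.239, with 9 of 10 genes lower. Among them Col3a1, a fibrillar collagen gene, had a ratio of 0.186 and Apod, an apolipoprotein gene, one of 0.246. Immune markers summed to 1.48 and 0.489 per 10000, a ratio of 0.330, with 11 of 12 genes above 0 in both libraries lower. Cd74, which chaperones class II molecules, averaged 0.843 per 10000 in Wistar against 0.329 in SHR, a ratio of 0.390. It was the only immune marker past the minimum. C1qa, a complement gene of macrophages, was at 0.138 and 0.00727, a ratio of 0.0525, with an average under 0.1 per 10000. The T cell gene Cd3e was at 0 in both libraries.

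Vascular and blood markers were near 0. Endothelial markers summed to 0.274 and 0.120 per 10000, a ratio of 0.440, with 7 of 9 listed genes lower, a share near that of all genes at such levels. Vwf, the von Willebrand factor gene, had a ratio of 0.109, and Tek, an endothelial receptor gene, one of 2.53. Mural cell markers summed to 0.129 and 0.0758 per 10000, a ratio of 0.588. Of these, Myh11, a smooth muscle myosin gene, had a ratio of 0.595, Acta2, a smooth muscle actin gene, one of 1.08, and Rgs5 was at 0 in SHR. Erythrocyte markers summed to 0.0669 and 0.0499 per 10000, with Hbb at 0.0474 and 0.0237 and Hba-a2 at a ratio of 1.34, and Hba-a3 and Alas2 were at 0 in both libraries. The summed sympathetic neuron markers had a ratio of 1.13, with 11 of 19 genes lower. Markers of fibroblasts and immune cells thus moved with the glial transcripts, and their part in the members' ratios was not tested.

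**Figure D4:**
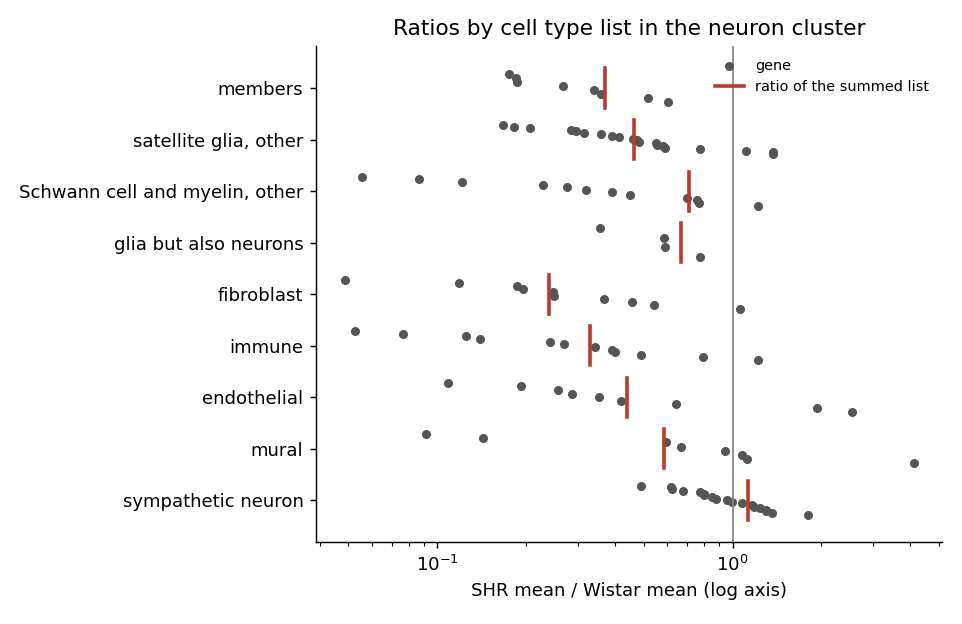
SHR mean divided by Wistar mean (log axis) for each gene (points) of 9 lists, with the ratio of the summed list as a red bar; genes at 0 in either library and the 2 erythrocyte genes above 0 in both are not drawn. The summed members stood at 0.371, between the immune markers at 0.330 and the endothelial markers at 0.440, and the summed sympathetic neuron markers at 1.13.

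The means pool all neurons of a library. They do not show whether a member's counts came from a few droplets or from many.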

How the data were processed

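Single-cell libraries of dissociated stellate ganglia (1 Wistar, 1 SHR) were made with 10x Genomics 3′ chemistry. Per the labels, the submitters' processing notes name Cell Ranger 3.0.2, Seurat 3 and the genome build Rnor_6.0. The authors clustered the cells and deposited for each gene the natural log of 1 plus its mean count per 10000 over the sympathetic neurons. Cell filters, doublet treatment and the number of neurons are not given in the sources used here. The authors' own table of fold changes, p-values and shares of cells was not used.

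The deposited values were converted back with expm1 (Python 3.11.15, NumPy 2.4.6, pandas 2.3.3), and their means summed to 10000 in each library. Leaving out 4 lines with repeated names left 25395 of 25399 genes. Ratios are SHR over Wistar means with no pseudocount. The minimum for background shares was an average of 0.1 per 10000. Spans for the ranking by length were found by symbol or synonym for 7291 genes (95.7%). Calculations were tested on simulated data. Alternatives were other pseudocounts, scalings and minimums, and leaving out single members.

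The members and lists were chosen with earlier results of these data known. The genes named are all members, all genes past the minimum of the other glial and partner lists, and the 2 most abundant genes of each other list, together with markers listed at 0 and genes of noradrenaline synthesis, storage and uptake, which were named after their values were seen. A few genes that the rule covers are left unreported.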

Additional observations from a re-analysis of the deposited data

How the results depend on the processing

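No paired analysis was possible because each library is the only one of its strain, and no library could be left out. All 8 members had lower SHR means under every scaling tried, and a pseudocount cannot change that direction. Setting the median ratio of the 7621 genes past the minimum to 1 multiplied SHR means by 1.16, and setting the sympathetic neuron markers equal multiplied them by 0.888. The ratio of the summed members became 0.430 and 0.329, and the share of genes lower in SHR, 65.6%, became 50% and 76.7%. The spread of the member ratios, 3.44-fold, became 2.2-fold with a pseudocount of 1. The number of members with an SHR mean of at most 0.5 times the Wistar mean, 6, became 3 with a pseudocount of 0.1 and 1 with a pseudocount of 1, an alternative chosen after the data were examined. A pseudocount pulls the ratio of a low gene towards 1 by construction. Leaving out single members gave ratios of the sum between 0.342 and 0.395 and spreads between 2.95 and 3.44. The share of all genes at or under 0.5, 11.3%, became 21.9% over genes above 0 in both libraries, 4.0% over genes of at least 1 per 10000, and 6.71% with the median ratio set to 1. The depth is unknown, and members under 0.1 per 10000 are the least certain.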
